A study of Mus musculus with 12 samples.

Results

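The genes described here are 33 genes of cholesterol and fatty acid synthesis with their SREBP regulators, taken as a named list from the 49315 gene identifiers of the count files. By role they comprise 7 genes of the mevalonate pathway, 12 of the squalene and sterol steps, 6 regulators and sterol transporters, and 8 of fatty acid synthesis. All 33 passed the filter on low counts and were among the 16637 genes tested. They were measured by RNA-seq in forebrain endothelial cells (CD31+) that had been sorted from E15.5 mouse embryos, with 1 embryo per library and 4 libraries per genotype. The sort removed CD45+ blood cells, CD140b+ mural cells and dead cells.

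Wild-type embryos carried intact Gpr124, which encodes an adhesion G protein-coupled receptor of brain endothelium that acts with Reck in canonical Wnt signaling. Gpr124ΔC/ΔC embryos were homozygous for a knock-in allele that places a V5 tag and a stop codon after the last transmembrane domain, so that the intracellular domain is missing. The study's protein measurements put the truncated receptor below the wild-type level, so a difference from wild type cannot be assigned to the missing domain alone. Gpr124-/- embryos were homozygous for a lacZ allele. Both alleles are global rather than restricted to endothelium, and both came from heterozygous intercrosses. A difference between genotypes therefore need not arise within the endothelial cell itself, and in bulk RNA fewer cells of a type and less RNA per cell cannot be told apart. The p-values below measure the spread between embryos.

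The libraries held 13877572 to 22551163 counts. Adgra2, the current symbol of Gpr124, was at 56.1 to 115 CPM (counts scaled to library size with TMM factors) in wild type, 61.9 to 142 in Gpr124ΔC/ΔC and 8.38 to 12.1 in Gpr124-/-. The summed level of 10 endothelial markers was 9660 to 13063 CPM in every library, although in Gpr124-/- against wild type Emcn, Cdh5 and Pecam1 rose and Tek and Erg fell among them, and Emcn also rose in Gpr124ΔC/ΔC. Libraries JE6 (wild type) and JE3 (Gpr124ΔC/ΔC) stood apart, because the single gene Gm23935 took 124586 and 141220 TPM (counts scaled to gene length and library size) there, against at most 30360 elsewhere. That share lowers the TPM of all other genes in those libraries, so values by library are given in CPM, and TPM is used to compare genes with each other and, where it is named, in further tests that carry this limit. The embryo labels begin with a letter whose meaning the sources used here do not give. Letter J held wild types JE1 and JE6 with Gpr124ΔC/ΔC embryos JE3 and JE4, and letter L held wild type LE6 with Gpr124ΔC/ΔC embryos LE2 and LE5. Letter K held wild type KE8 with Gpr124-/- embryo KE4, and letter M held only Gpr124-/- embryos, namely ME1, ME4 and ME5.

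Cholesterol is built from acetyl-CoA through mevalonate, isoprenyl diphosphates, squalene and lanosterol, and long-chain fatty acids are built from the same precursor and then elongated and desaturated. Both sets of genes are transcribed under SREBP transcription factors, encoded by Srebf1 and Srebf2, which are held in the endoplasmic reticulum by Scap and the Insig proteins when sterol is plentiful and are released when it falls. SREBPs bind sterol regulatory elements and commonly act with NF-Y, a factor that binds CCAAT boxes, while sterol excess is sensed by LXR receptors, which raise efflux genes such as Abca1. The blood-brain barrier keeps plasma lipoproteins out of the brain, which makes its own cholesterol.

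Promoter windows from 250 bases before to 50 bases after the start site were found in RefSeq (build GRCm38.p6) for 26 of the 33 genes. Fdps, Fdft1, Sqle, Stard4, Scd1, Scd2 and Fads1 had no window in the table. The windows shown belong to genes whose levels differed between genotypes and to Hmgcs1, which alone held a sterol regulatory element as searched. Capitals mark the sterol regulatory element TCACNCCAC and the CCAAT box, each on either strand, so that a CCAAT box on the opposite strand reads ATTGG.
Hmgcs1, chr13:119690101-119690400, plus strand: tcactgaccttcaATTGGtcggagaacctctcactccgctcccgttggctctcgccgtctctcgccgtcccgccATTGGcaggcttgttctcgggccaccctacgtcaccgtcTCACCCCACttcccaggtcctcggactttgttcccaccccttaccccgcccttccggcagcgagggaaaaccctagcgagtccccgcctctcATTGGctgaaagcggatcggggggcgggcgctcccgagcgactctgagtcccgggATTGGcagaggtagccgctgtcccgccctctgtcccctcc
Insig1, chr5:28071162-28071461, plus strand: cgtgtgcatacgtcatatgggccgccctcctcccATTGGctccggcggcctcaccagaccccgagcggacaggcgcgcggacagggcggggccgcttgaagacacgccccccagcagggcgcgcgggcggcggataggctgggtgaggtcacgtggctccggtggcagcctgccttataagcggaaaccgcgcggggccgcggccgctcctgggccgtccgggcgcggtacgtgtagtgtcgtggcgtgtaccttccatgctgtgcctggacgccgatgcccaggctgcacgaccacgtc
Lss, chr10:76531355-76531654, plus strand: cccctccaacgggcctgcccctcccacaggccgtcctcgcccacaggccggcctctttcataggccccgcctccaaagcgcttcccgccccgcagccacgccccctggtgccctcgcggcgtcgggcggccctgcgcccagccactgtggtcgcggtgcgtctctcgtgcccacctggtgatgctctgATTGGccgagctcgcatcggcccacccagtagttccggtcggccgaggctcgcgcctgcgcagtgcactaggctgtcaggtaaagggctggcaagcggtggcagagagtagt
Fasn, chr11:120824498-120824797, minus strand: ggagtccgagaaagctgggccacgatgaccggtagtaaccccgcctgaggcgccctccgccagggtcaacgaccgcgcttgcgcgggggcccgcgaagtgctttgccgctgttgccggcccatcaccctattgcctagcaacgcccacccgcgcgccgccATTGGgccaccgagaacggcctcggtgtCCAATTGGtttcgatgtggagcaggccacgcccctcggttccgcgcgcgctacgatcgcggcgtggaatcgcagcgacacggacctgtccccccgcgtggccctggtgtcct
Mvk, chr5:114444019-114444318, plus strand: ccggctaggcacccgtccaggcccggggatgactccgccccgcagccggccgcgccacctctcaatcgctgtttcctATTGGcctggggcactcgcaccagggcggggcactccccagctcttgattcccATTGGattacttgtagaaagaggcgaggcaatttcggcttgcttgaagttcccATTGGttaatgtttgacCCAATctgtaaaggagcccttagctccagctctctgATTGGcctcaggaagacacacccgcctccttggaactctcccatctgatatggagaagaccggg
Fads2, chr19:10101454-10101753, minus strand: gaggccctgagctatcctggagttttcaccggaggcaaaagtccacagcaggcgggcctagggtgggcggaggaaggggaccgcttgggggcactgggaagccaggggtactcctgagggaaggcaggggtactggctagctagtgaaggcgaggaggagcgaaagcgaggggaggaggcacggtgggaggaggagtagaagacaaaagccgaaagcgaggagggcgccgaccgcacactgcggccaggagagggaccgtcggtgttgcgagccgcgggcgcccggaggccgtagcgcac
The letters CCAAT occurred in 21 of the 26 genes and in 22 of their 34 windows (64.7%), compared with 37.4% of all 32851 windows and 37.3% of the windows of tested genes. The letters TCACNCCAC occurred in 1 of the 34 windows (2.94%), that of Hmgcs1, and in 1.24% of all windows. In Hmgcs1 this match lay 137 bases before the start site. The 2 matches of Fasn at 62 and 59 bases before the start overlap, since CCAATTGG reads the same on both strands. Mvk, whose level was lower in Gpr124-/-, held 5 CCAAT matches, and Fads2, whose level was higher, held neither motif. The CCAAT box was present in 5 of the 6 genes with a window that rose in Gpr124-/-, in 3 of 3 that fell and in 13 of 17 that did not pass the test, so it was found in genes of both directions. These matches are a description of the letters, and both motifs were chosen with the sequences in view.

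Per gene length, the genes spanned a wide range in wild type. Scd2, the stearoyl-CoA desaturase, stood highest at 335 ± 21.3 TPM (SD, n = 4), followed by Lbr, a sterol reductase that also binds lamin B at the inner nuclear membrane, at 175 ± 35.5 TPM. Acly and Fads1 came next at 116 ± 12.5 and 113 ± 17.4 TPM, which do not differ beyond their spread. At the bottom, Scd1 and Lss stood at 3.08 ± 1.43 and 3.04 ± 0.625 TPM, and Acaca, which encodes the acetyl-CoA carboxylase that makes malonyl-CoA, at 1.78 ± 0.519 TPM.

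Gpr124-/- was first compared with wild type. In Gpr124-/- endothelial cells 12 of the 33 genes differed from wild type with an adjusted p under 0.05, in the quasi-likelihood test of edgeR, adjusted after Benjamini-Hochberg over all tested genes. Of these 8 rose (Fasn, Lss, Insig1, Fads2, Cyp51, Mvd, Fdps and Fdft1) and 4 fell (Dhcr7, Scd2, Mvk and Ebp). The shares were 24.2% higher and 12.1% lower, where over all tested genes 19.8% passed, 10.5% higher and 9.32% lower. The changes were modest, from 0.506-fold for Dhcr7 to 1.81-fold for Fasn, and 0 genes also passed an absolute log2 fold change of 1, as 9.88% of all tested genes did. The median log2 fold change of the 33 genes was 0.26 against -0.01 over all tested genes, and 22 of the 33 values were positive. At an unadjusted p under 0.05 there were 16 (48.5%), compared with 30.6% of all genes, and DESeq2 called 14, with Sqle and Insig2 besides the 12. Gpr124-/- and wild-type libraries did not overlap in CPM for 4 genes that were higher and 5 that were lower, beside 22.9% of all tested genes.

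These counts rest on 3 of the 4 Gpr124-/- embryos carrying the letter M. With the letter as a term, where the genotype difference comes from the K pair KE4 and KE8 alone, 0 of the 33 genes passed, as against 6.16% of all genes, and the median log2 fold change was -0.0012. For the letter M the genotype and the letter cannot be told apart. The K pair had the same direction as the pooled fit for 8 of 8 genes that rose and 4 of 4 that fell, as it did for 98.1% and 97.7% of all genes that rose and fell, and KE4 is itself part of the pooled fit. The sizes differed between both sets. With the letter as a term the genes that had fallen were at -1.61 for Dhcr7 (adjusted p = 0.0519), -0.75 for Mvk, -0.74 for Scd2 and -0.36 for Ebp, as large as in the pooled fit or larger apart from a slightly smaller Ebp. Those that had risen were all smaller, at 0.62 for Fasn, 0.45 for Mvd, 0.35 for Insig1, 0.23 for Cyp51, 0.18 for Lss, 0.14 for Fdft1, 0.12 for Fdps and 0.11 for Fads2. In the K pair the 8 genes that rose had a median log2 difference of 0.21 and the 4 that fell of -0.75. KE4 was the lowest Gpr124-/- library for 8 of the 8 genes that rose, beside 59.4% of all genes that rose. Without libraries JE6 and JE3, 10 genes passed and the median was 0.19. With any 1 library left out, Fasn, Lss, Insig1, Fads2, Mvk, Scd2 and Ebp still passed, and the number of genes that passed ran from 8 (without JE1, ME1, ME4 or ME5) to 14 (without KE4).

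**Figure D1:**
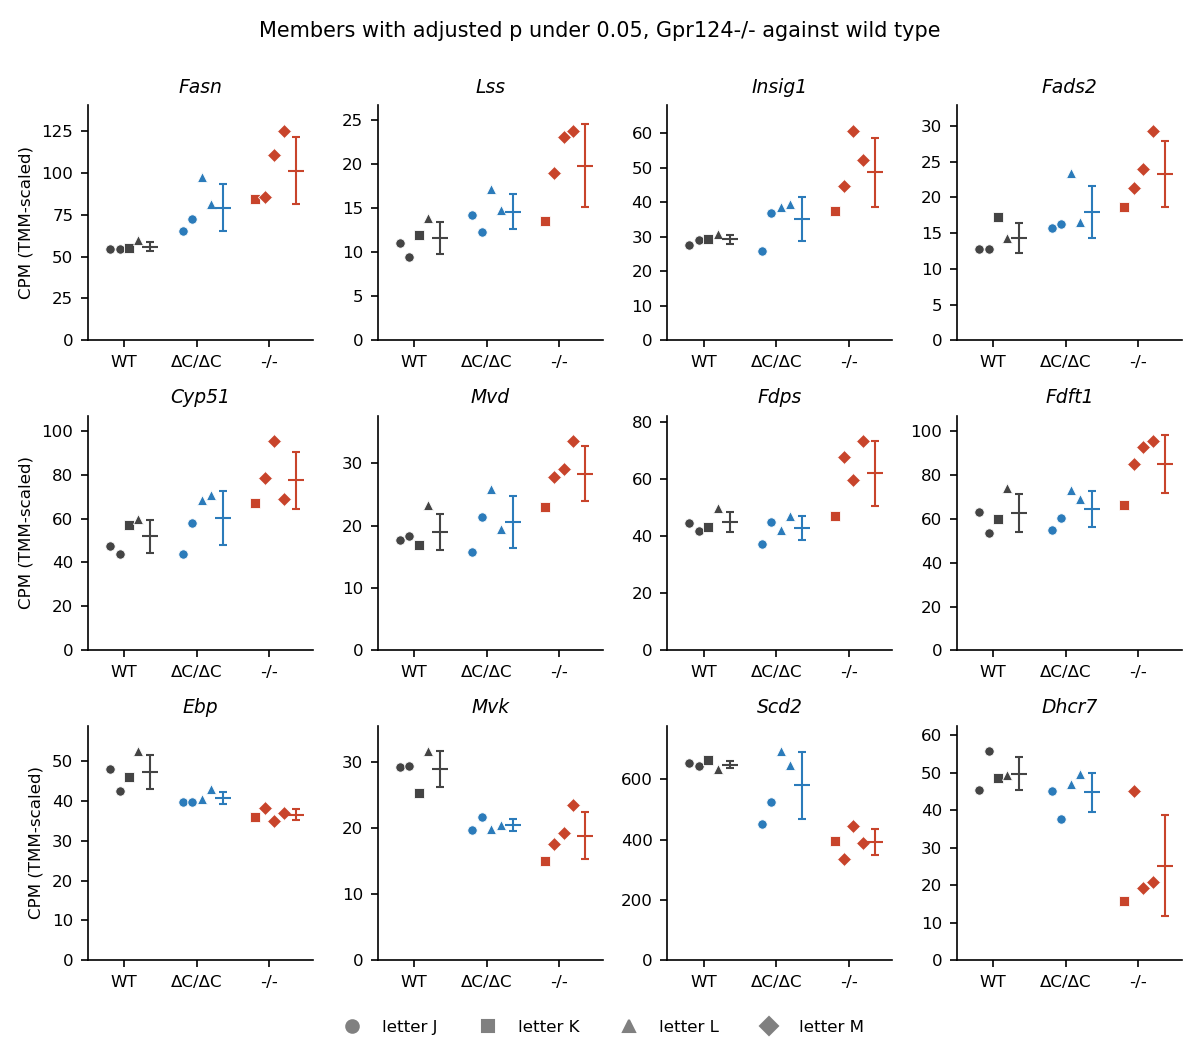
Level of the 12 genes with an adjusted p under 0.05 in Gpr124-/- against wild type, as CPM scaled by TMM factors on linear axes from 0; each point is 1 embryo, its shape gives the label letter, and the bar beside each group is the mean ± SD of 4 embryos. In the 8 upper panels KE4 (square) is the lowest Gpr124-/- point, and in Dhcr7 the embryo ME1 lies with the wild types at 45.0 CPM.

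Within the mevalonate pathway 2 of 7 genes rose and 1 fell in Gpr124-/- against wild type (42.9%, beside 19.8% of all tested genes). Mvd (chr8:122433601-122443422, GRCm38), the decarboxylase that makes isopentenyl diphosphate, was at 17.7, 18.4, 16.8 and 23.3 CPM in wild types JE1, JE6, KE8 and LE6. In Gpr124-/- embryos KE4, ME1, ME4 and ME5 it was at 22.9, 27.7, 29.1 and 33.6 CPM, so that KE4 and the wild type LE6 overlapped and the M embryos were higher than every wild type. The log2 fold change was 0.57 ± 0.17 (SE, adjusted p = 0.0304). It was 0.49 to 0.68 with 1 library left out and lost the threshold without JE1, JE6, KE8, ME1, ME4 or ME5 (adjusted p up to 0.0812).

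Fdps (chr3:89093588-89101959), the synthase of farnesyl diphosphate, was at 44.4, 41.7, 43.2 and 49.9 CPM in wild type and 47.1, 67.6, 59.7 and 73.4 CPM in Gpr124-/-, in the same order of embryos. Its KE4 value lay among the wild types, and its log2 fold change was 0.47 ± 0.13 (adjusted p = 0.0257). It lost the threshold without JE1, JE6, KE8, ME1 or ME5 (0.39 to 0.58, adjusted p up to 0.077). Fdps was also the single gene of the 33 that rose against Gpr124ΔC/ΔC.

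Mvk (chr5:114444269-114460591), mevalonate kinase, went the other way. It was at 29.3, 29.5, 25.3 and 31.8 CPM in wild type and 15.0, 17.7, 19.4 and 23.6 CPM in Gpr124-/-, with no overlap and a log2 fold change of -0.61 ± 0.14 (adjusted p = 0.006). Here KE4 was the lowest library of all 12.

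The other 4 genes of the pathway did not pass. For Hmgcs1, the synthase that makes HMG-CoA, the log2 fold change was 0.35 at an adjusted p of 0.168, and for Idi1, the isopentenyl diphosphate isomerase, it was 0.32 at 0.267. Acat2, the cytosolic thiolase, had 0.08 and Pmvk, phosphomevalonate kinase, -0.03.

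Of the 12 genes of the squalene and sterol steps 3 rose and 2 fell (41.7%, beside 19.8% of all tested genes). Lss (chr10:76531588-76557138), which closes the sterol ring to give lanosterol, was at 11.1, 9.50, 11.9 and 13.9 CPM in wild type and 13.6, 19.0, 23.1 and 23.8 CPM in Gpr124-/-. The M embryos were above every wild type while KE4 was below LE6, and the log2 fold change was 0.78 ± 0.19 (adjusted p = 0.00991). It was 0.18 with the letter as a term (adjusted p = 0.847), and it did not pass by limma on log2(TPM + 1) without a filter.

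Cyp51 (chr5:4081145-4104746), the lanosterol demethylase, was at 47.4, 44.0, 57.2 and 59.6 CPM in wild type and 67.2, 78.3, 95.4 and 68.8 CPM in Gpr124-/-. Its groups did not overlap (log2 fold change 0.57 ± 0.17, adjusted p = 0.0275). Without JE1, JE6, ME1 or ME4 it lost the threshold (0.46 to 0.64, adjusted p up to 0.0912).

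Fdft1 (chr14:63145153-63177793), squalene synthase, was at 62.9, 53.5, 59.9 and 74.2 CPM in wild type and 66.2, 84.9, 92.5 and 95.6 CPM in Gpr124-/-. KE4 lay within the wild-type range, and the log2 fold change was 0.44 ± 0.14 (adjusted p = 0.0434). It lost the threshold without any 1 of 8 libraries, namely JE1, JE6, KE8, JE4, LE5, ME1, ME4 and ME5 (0.37 to 0.54, adjusted p up to 0.119). Cyp51 overlaps Akap9 and Fdft1 overlaps Ctsb on the opposite strand, and these neighbors are abundant at means of 136 and 409 CPM. Whether the counting used strand is not given in the sources used here, so both values are uncertain.

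Dhcr7 (chr7:143823145-143848410), the reductase that completes cholesterol from its direct precursor, had the lowest fold change among the 33. It was at 45.4, 55.8, 48.6 and 49.2 CPM in wild type and 15.9, 45.0, 19.1 and 20.8 CPM in Gpr124-/-. Embryo ME1 was thus within 1 CPM of the lowest wild type, while KE4, ME4 and ME5 were far below it. The log2 fold change was -0.98 ± 0.26 (adjusted p = 0.018) with all embryos and -1.42 without ME1. Without ME4 or ME5 the adjusted p rose to at most 0.0597.

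Ebp (chrX:8185329-8193512), a sterol isomerase, fell by a small and even amount, from 48.0, 42.4, 46.0 and 52.5 CPM to 35.8, 38.1, 34.9 and 36.8 CPM. The groups did not overlap (log2 fold change -0.38 ± 0.09, adjusted p = 0.00901), and the Gpr124-/- embryos were also all below the Gpr124ΔC/ΔC embryos. Ebp did not pass by limma on TPM in any of 3 forms, that is with a pseudocount of 1 or 0.1 or without a filter.

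The remaining 7 sterol genes did not pass, with log2 fold changes from -0.27 for Lbr to 0.37 for Sqle, the squalene epoxidase (adjusted p = 0.0606). Msmo1, Hsd17b7 and Sc5d had positive values of 0.26, 0.22 and 0.34, and Nsdhl and Tm7sf2 negative ones of -0.13 and -0.24. Tm7sf2, at a mean of 8.50 CPM, overlaps Vps51 on the same strand, which is at 61.4 CPM, so its value is uncertain. Genes of the sterol steps thus passed in both directions, Lss, Cyp51 and Fdft1 as higher and Ebp and Dhcr7 as lower.

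Among the 6 regulators and transporters, Insig1 alone passed in Gpr124-/- against wild type (16.7%, near the 19.8% of all tested genes). Insig1 (chr5:28071363-28078662), which retains the SREBP-Scap complex in the endoplasmic reticulum and is itself an SREBP target, was at 27.7, 29.1, 29.3 and 30.7 CPM in wild type and 37.4, 44.6, 60.7 and 52.1 CPM in Gpr124-/-. The wild types were tightly grouped and every Gpr124-/- embryo was above them (log2 fold change 0.74 ± 0.16, adjusted p = 0.00564). Gpr124ΔC/ΔC embryos JE3, JE4, LE2 and LE5 were at 25.8, 37.0, 38.5 and 39.5 CPM, so that JE3 was below every wild type and the other 3 were above them, with LE2 and LE5 also above KE4.

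Its paralog Insig2, which shares this retention role, was at 44.3, 39.7, 46.1 and 47.8 CPM in wild type and 37.6, 39.0, 35.8 and 30.7 CPM in Gpr124-/-. These values did not overlap, but the adjusted p was 0.061 with a log2 fold change of -0.31.

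Srebf2, the SREBP chiefly of sterol genes, was at 127, 142, 125 and 148 CPM in wild type and 141, 163, 176 and 210 CPM in Gpr124-/- (log2 fold change 0.35, adjusted p = 0.0938). In Gpr124ΔC/ΔC it was at 112, 141, 162 and 153 CPM, and the groups overlapped.

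Srebf1, the SREBP chiefly of fatty acid genes, was at 62.5, 68.9, 60.0 and 77.9 CPM in wild type and 64.0, 67.5, 71.5 and 93.9 CPM in Gpr124-/- (log2 fold change 0.14, adjusted p = 0.643). It overlaps Rai1 on the opposite strand. In Gpr124ΔC/ΔC it was at 45.6, 66.3, 72.7 and 81.9 CPM, which spans the wild-type range.

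Scap, the sterol-sensing escort of the SREBPs, was at 58.6, 58.2, 51.2 and 60.6 CPM in wild type and 50.7, 43.8, 52.2 and 61.0 CPM in Gpr124-/- (log2 fold change -0.14, adjusted p = 0.469). In Gpr124ΔC/ΔC it was at 47.3, 53.9, 51.8 and 60.7 CPM. Stard4, a soluble cholesterol carrier, had a log2 fold change of -0.22 and did not pass.

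Of the 8 fatty acid genes 2 rose and 1 fell (37.5%, beside 19.8% of all tested genes). Fasn (chr11:120805846-120824547), fatty acid synthase, rose most among the 33. It was at 54.5, 54.5, 54.9 and 59.7 CPM in wild type and 84.3, 85.3, 110 and 125 CPM in Gpr124-/-, a log2 fold change of 0.86 ± 0.15 (adjusted p = 0.00116). In Gpr124ΔC/ΔC it was at 64.9, 72.2, 97.4 and 81.6 CPM, which is also above every wild type, although the adjusted p was 0.09. There it passed in 4 of 24 alternatives, namely by DESeq2, with the compared genotypes alone, without ME5 and within letters J and L. With the letter as a term over all libraries it did not pass (adjusted p = 0.0838).

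Fads2 (chr19:10064164-10101503), the delta-6 desaturase of polyunsaturated fatty acids, was at 12.8, 12.8, 17.3 and 14.3 CPM in wild type and 18.6, 21.3, 23.9 and 29.3 CPM in Gpr124-/-. The groups did not overlap, and the K pair was the closest at 17.3 and 18.6 CPM (log2 fold change 0.70 ± 0.18, adjusted p = 0.0128). The value was 0.11 with the letter as a term (adjusted p = 0.927). Its neighbor Fads1, the delta-5 desaturase, did not pass, with a value of 0.24 at an adjusted p of 0.395.

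Scd2 (chr19:44293676-44306864), the most abundant of the 33, fell. It was at 653, 645, 663 and 634 CPM in wild type and 396, 337, 445 and 390 CPM in Gpr124-/-, with no overlap (log2 fold change -0.73 ± 0.13, adjusted p = 0.00126). In Gpr124ΔC/ΔC it was at 452, 527, 696 and 649 CPM, so that the J embryos were below all wild types and the L embryos were among or above them. Scd1, a close relative, was at only 1.60 to 6.98 CPM in wild type, and reads shared between the Scd genes could move its value.

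The other 4 fatty acid genes had positive values that did not pass, from 0.18 for Acly, the citrate lyase that supplies cytosolic acetyl-CoA, to 0.37 for Acaca. Elovl6, an elongase, had 0.27 (adjusted p = 0.125). On the deposited TPM scale 11 of the 33 genes reached the smallest p that an exact two-sided permutation test of 70 orders can give, 0.0286, in Gpr124-/- against wild type, before any adjustment, as 20.3% of all tested genes did. This test includes JE6, whose TPM Gm23935 lowers, and the tests with Gpr124ΔC/ΔC include JE3. In the same test Mvk alone of the 33 reached it in Gpr124ΔC/ΔC against wild type and Nsdhl alone between the mutants, beside 8.85% and 11.5% of all tested genes.

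**Figure D2:**
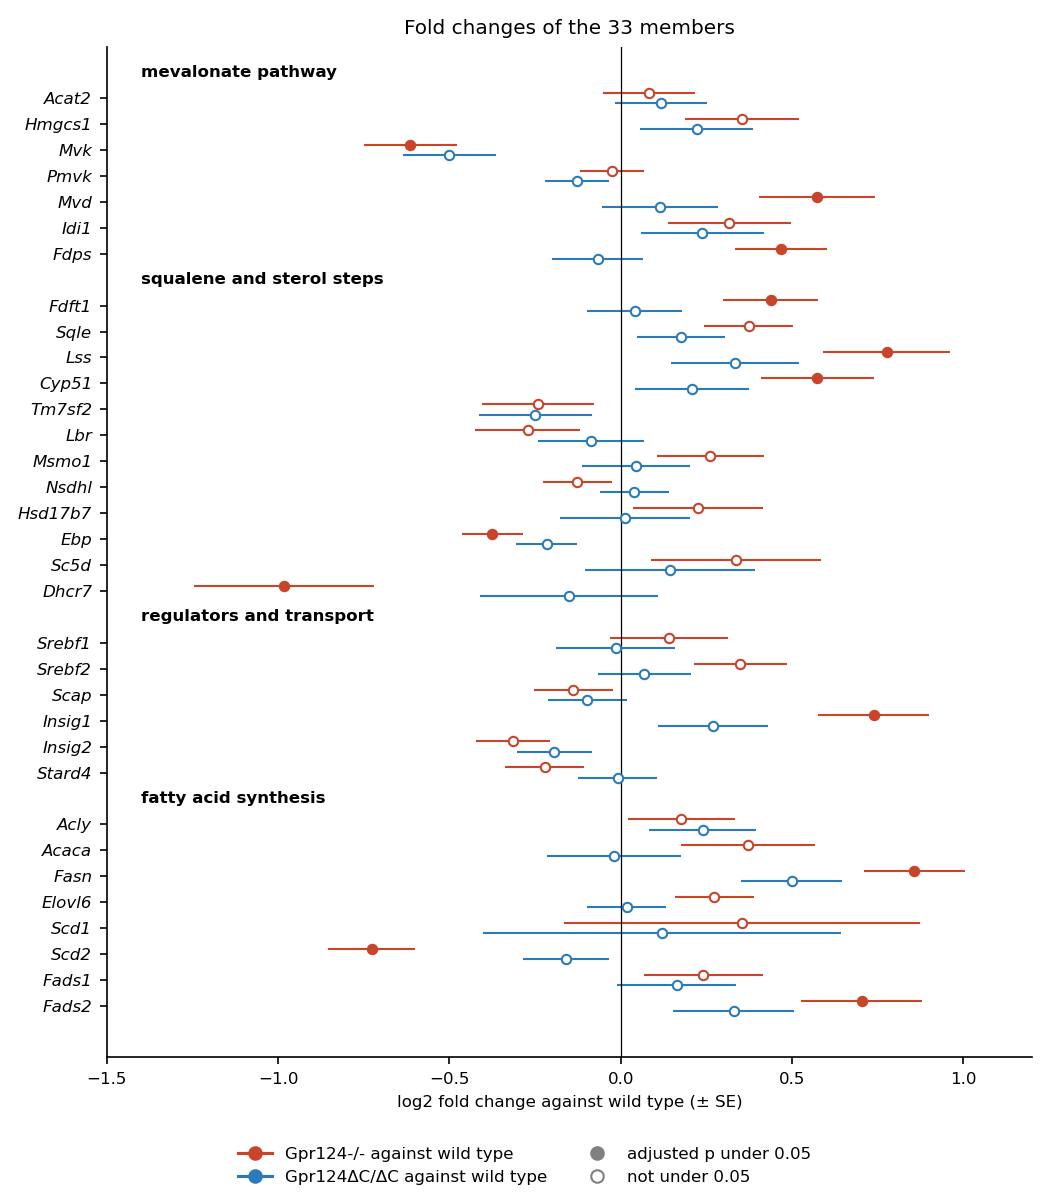
Log2 fold change against wild type (horizontal axis, ± SE) of the 33 genes by role, for Gpr124-/- (red) and Gpr124ΔC/ΔC (blue); filled points have an adjusted p under 0.05. Filled points are 12 red ones, 8 to the right of 0 and 4 to the left, and 0 blue ones.

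Gpr124ΔC/ΔC was next compared with wild type, to ask how these genes stand with the truncated receptor. None of the 33 passed by edgeR (0 genes), where 4.09% of all tested genes passed and 1.92% also passed an absolute log2 fold change of 1. At an unadjusted p under 0.05 there were 3 (9.09%), compared with 14.4% of all genes, and DESeq2 called Mvk and Fasn. The median log2 fold change was 0.04 against 0.01 over all genes.

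Gpr124ΔC/ΔC embryos did not overlap wild type for Mvk and Fasn, a smaller share of the 33 than the 11.3% of all tested genes. Mvk was at 19.7, 21.7, 20.0 and 20.5 CPM in JE3, JE4, LE2 and LE5, below the lowest wild type at 25.3 CPM (log2 fold change -0.50 ± 0.14, adjusted p = 0.061). With the letter as a term it was -0.56 with an adjusted p of 0.0202. Within letters J and L Mvk was lower in all 4 embryos than in each wild type of its letter.

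Gpr124-/- was then compared directly with Gpr124ΔC/ΔC, which tests whether both mutants differ. Of the 33 genes 2 passed (6.06%), beside 8.82% of all tested genes, and 0 passed an absolute log2 fold change of 1, which 4.6% of all genes did. Fdps was higher in Gpr124-/- with a log2 fold change of 0.54 ± 0.13 (adjusted p = 0.0255), and its Gpr124ΔC/ΔC values of 37.1, 45.0, 42.0 and 46.9 CPM were all below KE4. Scd2 was lower, with a log2 fold change of -0.57 ± 0.13 (adjusted p = 0.015). For the other 31 genes, Fasn and Insig1 included, a difference between the mutants did not pass. No letter holds both mutants, and with the letter as a term 0 of the 33 passed, beside 1.27% of all tested genes. In that fit Scd2 was at -0.53, close to its pooled value, and Fdps at 0.23. With KE4 left out 5 genes passed, with Insig1, Lss and Fdft1 higher in Gpr124-/- besides Fdps and Scd2. Fdps lost the threshold without JE3, LE2, ME1, ME4 or ME5 (adjusted p up to 0.0791) and Scd2 without LE5 or ME1 (up to 0.0522), while Dhcr7 passed as the lower gene without ME1.

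The genes of these pathways outside the 33 that are reported here comprise 21 of synthesis, 7 of sterol uptake and storage and 7 of the LXR and efflux arm. Of the 20 tested synthesis genes 3 rose and 5 fell in Gpr124-/- against wild type (40.0%, where 19.8% of all tested genes passed). With the letter as a term each of these 8 lost the threshold (adjusted p from 0.0517 for Me1 to 0.874 for Mid1ip1), and Mcat, the mitochondrial malonyl transferase, passed there as the higher gene. The log2 fold changes in that fit were near the pooled ones for Me1 at 1.62, Gpam at -0.82, Slc25a1 at -0.61 and Hacd3 at -0.72, and smaller in size for Fads3 at 0.89, Mid1ip1 at 0.18, Acacb at -0.42 and Scd3 at -0.77. Mcat was at 1.62 there and at 0.60 in the pooled fit, where it did not pass (adjusted p = 0.405). It varied with the letter within genotypes, at 41.5, 37.7, 11.4 and 19.2 CPM in wild types JE1, JE6, KE8 and LE6. In Gpr124ΔC/ΔC embryos JE3, JE4, LE2 and LE5 it was at 42.7, 42.7, 12.2 and 15.3 CPM, and in Gpr124-/- at 35.0 to 50.2 CPM. KE8 was thus the lowest library for Mcat. Me1, which supplies NADPH, was at 2.49, 2.49, 1.14 and 1.51 CPM in wild type and 3.51, 5.48, 7.75 and 6.56 CPM in Gpr124-/-. It rose with a log2 fold change of 1.61 (adjusted p = 0.00164), as did the desaturase relative Fads3 with 1.22 and Mid1ip1, which activates acetyl-CoA carboxylase, with 0.51. Mid1ip1 was close to the threshold and lost it without any library other than KE8 or ME4 (adjusted p up to 0.146).

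Gpam, which begins glycerolipid synthesis, fell with a log2 fold change of -0.90 (adjusted p = 0.000202). Slc25a1, the mitochondrial citrate carrier, fell with -0.63, Hacd3, a dehydratase of fatty acid elongation, with -0.71, Acacb, the mitochondrial acetyl-CoA carboxylase, with -0.67 and Scd3 with -1.14. Acacb did not pass without JE6, LE6 or any 1 Gpr124-/- embryo (adjusted p up to 0.0908). Gpam was the 1 gene of these 20 that passed in Gpr124ΔC/ΔC against wild type (5.0%, near the 4.09% of all tested genes), with -0.89 (adjusted p = 0.00116). With the letter as a term it was joined by Slc25a1 at -0.37 and Acacb at -0.69, which were lower, and Elovl7 at 0.65, which was higher (adjusted p of 0.0465, 0.0365 and 0.0275), and all 4 also passed within letters J and L. Gpam was at 29.4, 34.4, 27.8 and 32.3 CPM in wild type, 17.9, 18.6, 15.1 and 15.3 CPM in Gpr124ΔC/ΔC and 15.7, 14.9, 19.3 and 16.4 CPM in Gpr124-/-. The values of both mutants overlapped, and all lay below every wild type. Against Gpr124ΔC/ΔC, Gpr124-/- was higher for Me1 and Fads3 and lower for Scd3 and the elongase Elovl7, which lost the threshold without ME4 or ME5 (adjusted p up to 0.0548). None of the 4 passed with the letter as a term (adjusted p 0.159 to 0.839), at log2 fold changes of 1.69 for Me1, 0.77 for Fads3, -1.001 for Scd3 and -1.08 for Elovl7.

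Of the 6 tested genes of sterol uptake and storage 1 rose and 1 fell in Gpr124-/- against wild type (33.3%, beside 19.8% of all tested genes). Tmem97, a sterol-responsive membrane protein, rose with a log2 fold change of 0.39, and Lpin1, a phosphatidic acid phosphatase, fell with -0.64. Tmem97 lost the threshold without JE1, JE6, LE6 or 1 M embryo (adjusted p up to 0.0876), and Lpin1 without KE8, LE6 or 1 M embryo (up to 0.0679). They were, with the letter as a term, at 0.03 and -0.48 and did not pass (0.978 and 0.459).

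In the LXR and efflux arm 4 of 7 genes fell and 1 rose in Gpr124-/-, and 3 fell in Gpr124ΔC/ΔC, where 19.8% and 4.09% of all tested genes passed. Apoe, the apolipoprotein of brain lipid particles, was at 784, 810, 964 and 801 CPM in wild type, 257, 304, 287 and 321 CPM in Gpr124ΔC/ΔC and 146, 49.7, 42.4 and 47.9 CPM in Gpr124-/-. Each step down was without overlap, with a log2 fold change against wild type of -1.52 in Gpr124ΔC/ΔC (adjusted p = 0.0168) and -3.56 in Gpr124-/- (adjusted p = 1.29e-05). The former rose to an adjusted p of at most 0.0524 without JE4 or LE2 and to 0.0911 without both JE6 and JE3, and Apoe did not pass there by limma on log2(TPM + 1) without a filter.

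Abca1, which exports cholesterol to apolipoproteins, was at 764, 862, 867 and 814 CPM in wild type, 388, 453, 493 and 565 CPM in Gpr124ΔC/ΔC and 314, 219, 269 and 226 CPM in Gpr124-/-. The same order held without overlap, with log2 fold changes of -0.80 and -1.69. Lpcat3, a phospholipid remodeling enzyme under LXR, followed it with -0.71 and -1.17. In Gpr124ΔC/ΔC against wild type Lpcat3 did not pass by limma on TPM in any of 3 forms (adjusted p up to 0.101) and Abca1 in 2 of them (up to 0.0948). Abca1, Apoe and Lpcat3 also differed between both mutants, with log2 fold changes of -0.89, -2.03 and -0.46, the last of which lost the threshold without LE2, LE5, ME1 or ME4 (adjusted p up to 0.0675). With the letter as a term Apoe passed at a smaller value of -1.26 (adjusted p = 0.0149), and Abca1 at -0.65 and Lpcat3 at -0.57 did not pass (0.320 and 0.245). Nr1h3, which encodes LXR alpha, was low at 3.41 to 4.62 CPM in wild type and 0.811 to 1.66 CPM in Gpr124-/- (log2 fold change -1.61, adjusted p = 0.00108). Mylip, an LXR target that encodes a ubiquitin ligase, rose with 0.56, but not without JE1, JE6, LE6, LE2 or 1 M embryo (adjusted p up to 0.115). Nr1h2 and Abcg1 did not pass. Abca1, Apoe and Lpcat3 still passed in Gpr124-/- against wild type with the letter as a term, with log2 fold changes of -1.47, -2.73 and -1.30, which 0 of the 33 synthesis genes did, although Dhcr7 had a value of -1.61 in that fit. Nr1h3 at -1.30 and Mylip, which turned to -0.10, did not pass there (adjusted p of 0.261 and 0.916).

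**Figure D3:**
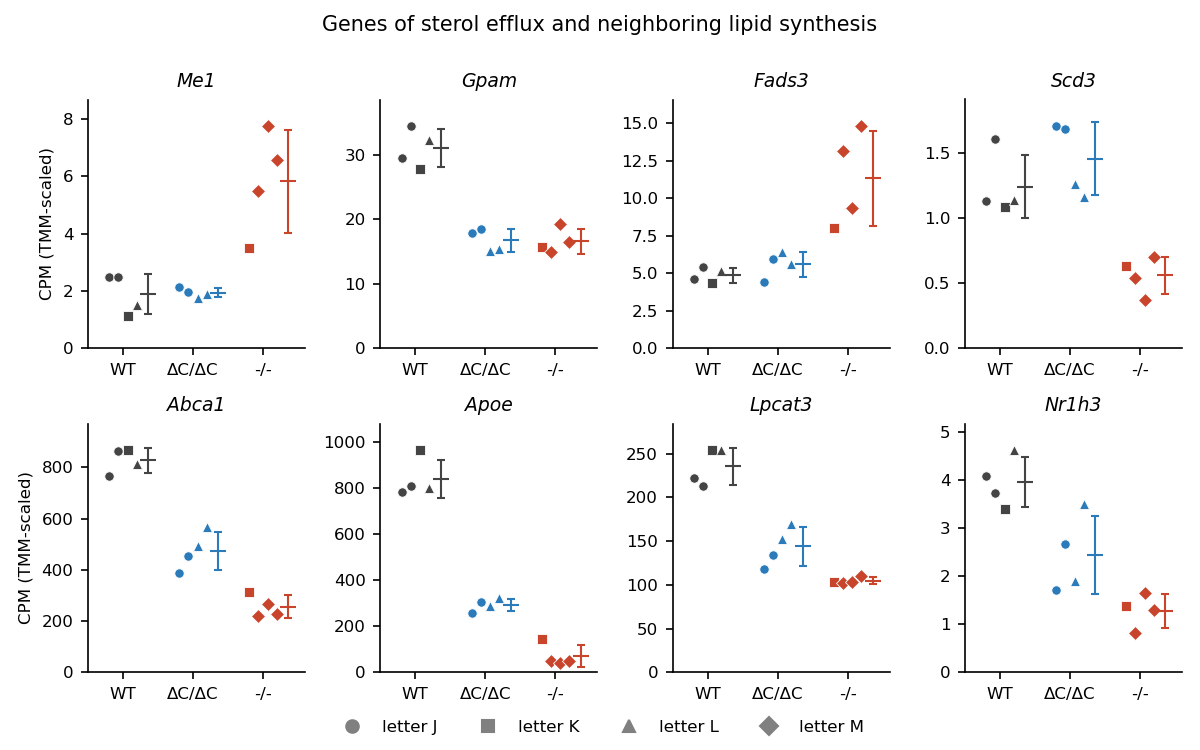
Level of 8 pathway genes outside the 33, as CPM scaled by TMM factors on linear axes from 0; each point is 1 embryo, its shape gives the label letter, and the bar is the mean ± SD of 4 embryos. Me1 and Fads3 are higher and Scd3 is lower in Gpr124-/- than in every library of the other genotypes, Gpam overlaps between both mutants below wild type, and Abca1, Apoe and Lpcat3 step down from wild type through Gpr124ΔC/ΔC to Gpr124-/-.

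The 33 genes also varied with the label letter within a genotype. In Gpr124ΔC/ΔC both L embryos were above both J embryos for 22 of the 33 genes (66.7%) and below them for 0, where 28.6% of all tested genes were above and 26% below. As the median deviation of the 33 genes from their means over the 12 libraries, JE3 was lowest at -0.30 and JE4 was at -0.05, while LE2 and LE5 were at 0.14 and 0.08 on the log2 scale. The wild types ran the same way, with JE1 and JE6 at -0.17 and -0.14, KE8 at -0.05 and LE6 at 0.06. In Gpr124-/-, KE4 was at -0.05 and the M embryos ME1, ME4 and ME5 at 0.17, 0.23 and 0.16. Over all 33 genes KE4 was thus level with its wild-type partner KE8. For the 8 genes that rose, which were chosen on this contrast, KE8 was at -0.26 and KE4 at 0.04, and for the 4 that fell they were at 0.26 and -0.49.

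**Figure D4:**
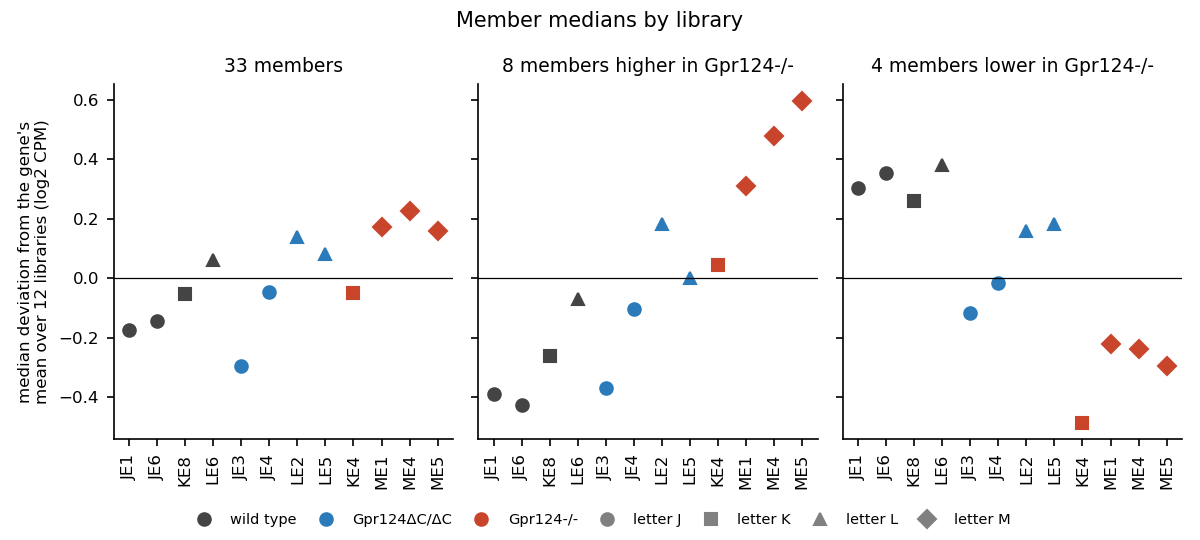
Median deviation of the genes in each library from each gene's mean over the 12 libraries (vertical axis, log2 CPM), for all 33 genes, the 8 that rose and the 4 that fell in Gpr124-/-; color gives the genotype and shape the label letter, and the last 2 panels were chosen on the contrast they show. Over all 33 genes KE4 lies level with KE8 and the M embryos lie highest, while for the 4 genes that fell all Gpr124-/- embryos, KE4 among them, lie below every other library.

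RNA of other cells differed between genotypes beside these genes. For the counts of markers below, 10.5% of all tested genes rose and 9.32% fell in Gpr124-/- against wild type, and 4.09% passed in Gpr124ΔC/ΔC. The summed level of 8 erythroid markers was 1843 to 3136 CPM in wild type, 1314 to 2772 CPM in Gpr124ΔC/ΔC and 4538 to 14787 CPM in Gpr124-/-, where ME1 was highest and 5 of 8 markers rose. The summed level of 5 platelet markers was 122 to 220 CPM in wild type, 158 to 209 CPM in Gpr124ΔC/ΔC and 215 to 870 CPM in Gpr124-/-, and 5 of 5 rose. KE4 was the lowest Gpr124-/- embryo for this sum, as for the 8 rising genes and for 59.4% of all genes that rose. For the erythroid sum ME4 was the lowest. The 8 macrophage markers summed to at most 9.19 CPM in any library and none was at 0 in all libraries of a genotype. The 7 pericyte markers summed to 29.4 to 63.4 CPM in wild type, 16.1 to 34.9 CPM in Gpr124ΔC/ΔC and 47.8 to 70.4 CPM in Gpr124-/-. In Gpr124-/- against wild type Abcc9 rose and Rgs5 fell among them, with log2 fold changes of 2.66 and -1.47. The 6 neural progenitor markers summed to at least 37.2 CPM in wild type, 16.8 to 27.7 CPM in Gpr124ΔC/ΔC and 21.4 to 30.3 CPM in Gpr124-/-, with no overlap between wild type and either mutant. Slc1a3 was the 1 of them that fell, in both mutants, and it made up most of the wild-type sum. It was at 22.9 to 36.9 CPM in wild type, 6.50 to 7.80 CPM in Gpr124ΔC/ΔC and 4.04 to 9.65 CPM in Gpr124-/-. Against wild type 5 of the 6 had positive log2 fold changes in Gpr124-/- and 2 in Gpr124ΔC/ΔC. The 6 fibroblast markers summed to 13.6 to 62.9 CPM in wild type and at most 18.2 CPM in either mutant. The wild-type top was KE8, the wild type of the K pair, and the other wild types lay within the range of the mutants. In KE8 Dcn was at 27.1 CPM, against 4.05 to 4.35 CPM in the other wild types. Pdgfra fell in Gpr124-/- and was at 5.73 CPM in KE8, against 0.952 to 1.78 CPM in the other wild types. The 8 neuronal markers summed to 69.6 to 147 CPM, 107 to 149 CPM and 120 to 163 CPM, and 1 rose in Gpr124-/-. Of 7 proliferation markers 4 rose in Gpr124-/- and 2 in Gpr124ΔC/ΔC. Of 6 dissociation stress genes Atf3 fell in Gpr124-/-, with a log2 fold change of -0.98. Mitochondrial genes took 0.969% to 1.41% of counts in wild type, 1.06% to 1.70% in Gpr124ΔC/ΔC and 0.586% to 1.29% in Gpr124-/-. The part of these cells, of proliferation, of stress and of RNA quality in the levels of the synthesis genes was not tested.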

How the data were processed

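Endothelial cells were sorted from E15.5 forebrains, and RNA was isolated and amplified with the SMART-Seq V4 kit. The study's methods, which do not name this kit, give poly(A) selection for the libraries. Paired-end reads were produced on an Illumina HiSeq. Per the labels, reads were demultiplexed with bcl2fastq 2.17 and the build was mm10. The aligner, the counter and its strand setting are not given in the sources used here. The authors deposited raw counts per gene for each library and a table of TPM. Gene symbols were matched to GENCODE vM21 for 49056 of 49315 identifiers, and gene coordinates are those of that annotation (GRCm38).

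The counts of all 12 libraries were fitted together with edgeR 4.0.16 (R 4.3.3): TMM factors (0.946 to 1.04), filterByExpr by genotype at its defaults (minimum count 10), a quasi-likelihood F test per comparison and Benjamini-Hochberg adjustment over 16637 genes. A gene passed at an adjusted p under 0.05. CPM uses the TMM factors, and SE is the absolute log2 fold change divided by the square root of F. The script was tested on simulated data. The deposited TPM was used for levels between genes, an exact permutation test and limma 3.58.1 on log2(TPM + 1). The rule for named genes gave levels by library to every gene that passed (up to 12) and to Srebf1, Srebf2, Scap, Insig1 and Insig2. That rule named TPM by library, and CPM is given in its place because of Gm23935.

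The genes, lists and tests were chosen with earlier results of these data known. Alternatives were other scaling factors, other filters, DESeq2 1.42.0, the label letter as a term, the compared genotypes alone and each library left out. Leaving out JE6 and JE3 was added after seeing the data, as was recomputing TPM without Gm23935. A few genes of the lists outside the 33 are not reported here.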

Additional observations from a re-analysis of the deposited data

Results flagged for a closer look

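In 99 groups of 4 libraries (33 genes in 3 genotypes), 6 had a library far from the other 3, with a gap to the nearest of them, as a share of the group's range, above Dixon's critical value, and chance flags about 1 in 20 groups. In wild type, LE6 was highest for Sqle at 99.9 CPM against 86.8 to 87.0, and for Fasn at 59.7 CPM against 54.5 to 54.9. KE8 was lowest for Scd1 at 1.60 CPM against 6.23 to 6.98. In Gpr124ΔC/ΔC, LE5 was highest for Scd1 at 13.1 CPM against 3.09 to 3.72, and LE2 for Fads2 at 23.4 CPM against 15.7 to 16.6. In Gpr124-/-, ME1 was highest for Dhcr7 at 45.0 CPM against 15.9 to 20.8.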

How the results depend on the processing

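In Gpr124-/- against wild type the 12 genes that passed became 0 with the label letter as a term (median log2 fold change -0.0012), 7 by limma on log2(TPM + 1), 7 with a pseudocount of 0.1 and 6 without a filter, and 0 with an absolute log2 fold change above 1 besides. Leaving out 1 library gave 8 to 14 genes and medians of 0.18 to 0.33. In Gpr124ΔC/ΔC against wild type 0 genes became 1 with a mean of at least 50 counts, 1 with the letter as a term, 2 by DESeq2, 2 with the compared genotypes alone, 2 within letters J and L, and 0 to 2 with 1 library left out (medians -0.0045 to 0.12), where the 2 came without ME5 and 1 without KE4. Against Gpr124ΔC/ΔC the 2 genes of Gpr124-/- became 0 with the letter as a term (median -0.084), 1 with the compared genotypes alone, 1 by limma with either pseudocount, 0 by limma without a filter, 1 without JE6 and JE3, 0 with the fold threshold, and 1 to 5 with 1 library left out (medians 0.028 to 0.22), where 5 came without KE4 and 1 without JE3, LE2, LE5, ME1, ME4 or ME5.

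Some directions reversed. With the letter as a term, Gpr124-/- against wild type gave Tm7sf2 0.019, Msmo1 -0.081, Hsd17b7 -0.45, Sc5d -0.15, Acly -0.13, Acaca -0.049, Elovl6 -0.10, Fads1 -0.035 and Mylip -0.10, and Gpr124ΔC/ΔC against wild type gave Me1 -0.067, or -0.055 within letters J and L. Pmvk gave 0.016 by limma in each form, and -0.063 to 0.0056 with 1 library left out. Against wild type in Gpr124ΔC/ΔC, Me1 ran from -0.16 to 0.19 with 1 library left out. The cause was not tested. Fdft1, Mid1ip1, Mylip and Tmem97 were near the threshold and lost it in 13 or more alternatives, and Abca1, Apoe and Lpcat3 lost it in none in Gpr124-/- against wild type. No paired analysis was possible because the labels give no replicate numbers shared between genotypes; the label letters, which some genotypes share, were fitted as a term instead. With 4 embryos per genotype, small changes can be missed, and the letter term leaves the K pair alone for Gpr124-/- against wild type.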
